A study of Mus musculus with 4 samples.

Results

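The genes described here are 10 members of the fibroblast growth factor (FGF) pathway: the ligand genes Fgf4, Fgf3, Fgf15, Fgf5, Fgf8 and Fgf17, and the receptor genes Fgfr1, Fgfr2, Fgfr3 and Fgfr4. They were taken from a fixed list of names, out of 21887 protein-coding genes in the RefSeq table of GRCm38.p6. Every peak of the transcription factor Tfcp2l1 was assigned to a member if its summit lay inside the gene or within 50 kb of either end. Peaks found in both repeats, with 1 bp or more in common, are called shared. In all, 66 of the 43851 shared peaks fell in the windows of the 10 genes.

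Binding was measured by chromatin immunoprecipitation and sequencing (ChIP-seq) in mouse embryonic stem cells of wild type genotype, with no treatment beyond the culture medium. The medium held 1000 units/mL of LIF, 3 µM CHIR99021 (a GSK3 inhibitor) and 1 µM PD0325901 (a MEK inhibitor), the combination known as 2i with LIF. Each of the 2 repeats had 1 ChIP library, made with 10 µg of a custom Tfcp2l1 antibody, and 1 input library of chromatin without immunoprecipitation. All 4 libraries share genotype and medium, so the design holds no contrast between conditions, and no source used here says whether the repeats were separate cultures; gaps between repeats can therefore be technical. RNA was not measured, so neither the identity of the cells nor the expression of the genes could be checked.

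FGF ligands are secreted proteins that bind receptor tyrosine kinases together with heparan sulfate, and the activated receptors signal through adaptors and RAS to the MEK and ERK kinases. In mouse embryonic stem cells Fgf4 is the ligand best known for driving ERK activity, and that activity prepares the cells to leave the naive state. The MEK inhibitor of the 2i medium blocks the cascade below the receptors. Tfcp2l1 belongs to the CP2 family and helps to maintain the naive state.

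Promoter sequence could be set beside the peaks for 6 members with an entry in the RefSeq promoter table of GRCm38.p6, which gives 250 bases before and 50 after a start. These 6 were Fgf3, Fgf4, Fgf5, Fgfr2, Fgfr3 (2 starts) and Fgfr4, or 7 promoters. The sequences below are those closest to a result: the promoter of Fgf4, which held the summit of a shared peak in both repeats; both promoters of Fgfr3, on either side of a shared summit; and that of Oga, which held the strongest summit in the window of Fgf8. In the Fgf4 line the capitals run from the summit of repeat 2 to that of repeat 1. In the other lines they mark pairs of boxes that read CNAG or CNGG on either strand, 6 bases apart; on the minus strand the boxes read CTNG or CCNG.
Fgf4, chr7:144861136-144861435, plus strand: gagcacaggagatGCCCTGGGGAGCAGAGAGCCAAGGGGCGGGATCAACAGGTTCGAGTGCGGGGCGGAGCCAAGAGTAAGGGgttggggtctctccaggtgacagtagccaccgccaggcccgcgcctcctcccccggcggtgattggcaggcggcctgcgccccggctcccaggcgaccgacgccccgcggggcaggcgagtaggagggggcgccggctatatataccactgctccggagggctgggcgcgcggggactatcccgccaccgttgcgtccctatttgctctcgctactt
Fgfr3 first start, chr5:33721474-33721773, plus strand: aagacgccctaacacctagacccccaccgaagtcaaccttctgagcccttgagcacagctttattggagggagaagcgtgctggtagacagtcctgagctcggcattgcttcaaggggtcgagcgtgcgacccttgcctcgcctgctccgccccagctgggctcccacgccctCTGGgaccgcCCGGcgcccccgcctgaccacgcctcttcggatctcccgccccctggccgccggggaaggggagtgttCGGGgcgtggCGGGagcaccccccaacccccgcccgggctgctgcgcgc
Fgfr3 second start, chr5:33722056-33722355, plus strand: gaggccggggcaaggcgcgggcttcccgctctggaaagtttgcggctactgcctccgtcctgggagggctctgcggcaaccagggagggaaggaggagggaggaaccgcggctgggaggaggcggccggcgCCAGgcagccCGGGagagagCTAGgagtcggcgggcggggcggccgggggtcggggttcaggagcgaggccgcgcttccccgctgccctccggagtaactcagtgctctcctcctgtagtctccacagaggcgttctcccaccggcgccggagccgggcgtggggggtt
Oga, chr19:45783504-45783803, minus strand: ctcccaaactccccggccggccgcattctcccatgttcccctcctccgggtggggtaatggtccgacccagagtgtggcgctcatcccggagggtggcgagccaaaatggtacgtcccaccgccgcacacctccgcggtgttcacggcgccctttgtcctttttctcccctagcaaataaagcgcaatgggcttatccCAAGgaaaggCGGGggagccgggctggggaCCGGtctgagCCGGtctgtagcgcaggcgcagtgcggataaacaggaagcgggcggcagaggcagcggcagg

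The element known for the CP2 family is a direct repeat of such boxes. Its narrow form, CCAG followed after 6 bases by CCAG or CCGG on either strand, was in none of the 7 member promoters. It was in 5.32% of all 32851 promoters of that length (3.44% for CCAG followed by CCAG), and in 14% of the 2213 promoters that held a shared summit. The wider form, any pair of CNAG or CNGG boxes 6 bases apart, includes the narrow one and was tried after the narrow search. It was in 4 of the 7, those of Fgf5, Fgfr3 (both starts) and Fgfr4, against 54.7% of all promoters and 81.7% of those with a shared summit. In the second Fgfr3 promoter 3 boxes follow each other at that spacing, CCAG, CGGG and CTAG, an arrangement looked for after it was seen and present in 5.15% of all promoters. A shared summit lay in 1 of the 7, that of Fgf4, against 6.74% of all promoters, and the Fgf4 promoter held no pair in either form. A match of this kind describes letters, and a promoter without one says nothing on binding outside these 300 bases.

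Repeat 1 had 57614 peaks from 19353473 filtered ChIP tags, and repeat 2 had 51610 peaks from 22555373. Pairs of values below give repeat 1 first and repeat 2 second. Fold enrichment is the authors' ratio of ChIP tags at the summit of a single peak to the local background, with medians of 12.1-fold and 10.2-fold over each whole list. Each value comes from 1 ChIP library called against 1 input library, so the gap within a pair is the only spread between repeats.

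All 10 genes had a shared peak in their windows, where 80.6% of all protein-coding genes had one. Within 10 kb of the gene it was again all 10, against 64.5%. Inside the gene it was 7 of 10, against 44.8%: Fgf3, Fgf5, Fgf17 and the 4 receptor genes. These shares are read as a description, since the members were named with results of these data known. A median of 9.5 shared peaks lay in a member's window, against 4 for all protein-coding genes, and per 100 kb of window the medians were 7.60 and 2.58. Windows overlap at Fgf3, Fgf4 and Fgf15, and most windows hold neighbouring genes. For 45 of the 66 shared peaks the nearest protein-coding gene was a member, and every member was the nearest gene of at least 1, against 60.7% of all genes.

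**Figure D1:**
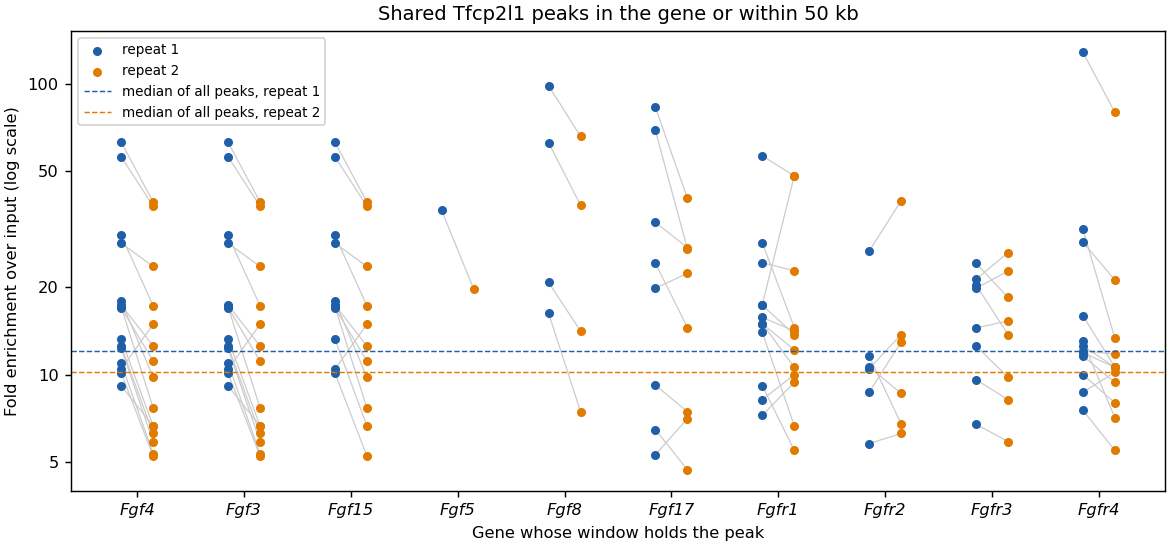
Fold enrichment over input (log scale) of every shared peak in the window of each gene, in repeat 1 (blue) and repeat 2 (orange), with grey lines joining the same peak and dashed lines at the median of each whole list. The strongest peak is in the window of Fgfr4 (128-fold and 79.7-fold), Fgf5 has 1 peak, and Fgf4, Fgf3 and Fgf15 repeat most of each other's points because their windows overlap.

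The densest binding lay around Fgf4, on chromosome 7. The ligand genes Fgf3, Fgf4 and Fgf15 lie side by side over 62.3 kb there, and Fgf4 itself spans 144861386 to 144865245. The window of Fgf4 held 15 shared peaks, or 14.4 per 100 kb, and 99.4% of protein-coding genes had a lower value. Of these, 9 lay within 10 kb of the gene, spread over 23.2 kb on both sides of it, and none had its summit between the gene's start and end. Their enrichment ran from 10.4-fold to 63.1-fold in repeat 1 and from 6.67-fold to 39.2-fold in repeat 2.

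The strongest peaks of the cluster were a pair upstream of Fgf4, with summits 3.74 kb apart. The farther one, at 144854528 to 144856134 and 6.18 kb from the start of the gene, had 63.1-fold and 39.2-fold enrichment from 268 and 180 tags. The nearer one, at 144857613 to 144859561 and 2.44 kb away, had 56.2-fold and 37.9-fold from 417 and 319 tags. The order of this pair thus depends on the measure: the farther peak led by fold and the nearer one by tags, in both repeats. Next by mean rank came peaks on the far side of the gene, 7.45 kb past its end (28.4-fold and 23.6-fold) and 2.19 kb past it (30.2-fold and 17.3-fold).

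Peaks at the ends of Fgf4 were weaker than these 4 flanking peaks in both repeats. A summit 168 bp upstream of the start, inside the promoter printed above, had 17.4-fold and 12.6-fold enrichment (55 and 52 tags). A summit 167 bp past the other end, in the peak at 144864396 to 144865639, had 17.2-fold and 7.69-fold (79 and 56 tags). The last exon of Fgf4 is known for an enhancer bound by Sox2 and Oct4, whose position was not looked up here. Both end peaks were above the median of repeat 1, and in repeat 2 the one past the end was below it.

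**Figure D2:**
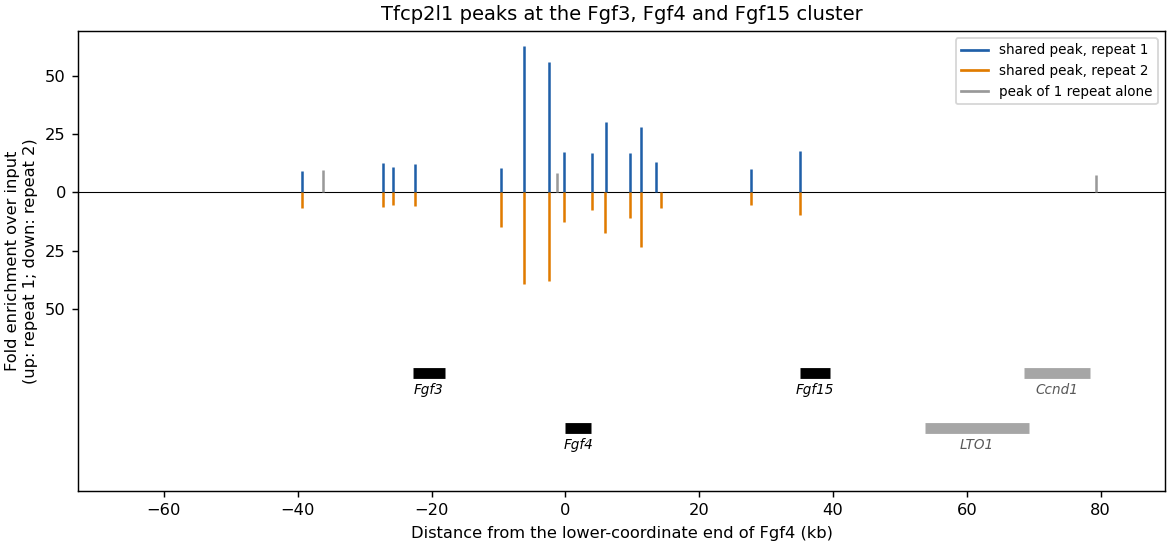
Fold enrichment of peaks along the joint window of Fgf3, Fgf4 and Fgf15, with repeat 1 upward, repeat 2 downward, peaks found in 1 repeat in grey and genes as bars, against distance from the lower-coordinate end of Fgf4 in kb. The tall pair sits 6.18 kb and 2.44 kb upstream of Fgf4, and no shared peak lies beyond the lower-coordinate end of Fgf15 at 35.1 kb.

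Fgf3, a ligand gene needed for inner ear development, and Fgf15, which encodes an endocrine ligand related to human FGF19, had weaker peaks of their own. The window of Fgf3 (144838612 to 144843348) held 14 shared peaks and that of Fgf15 (144896532 to 144900953) held 11, and 10 were common to all 3 windows of the cluster. The peak at the start of Fgf3, with its summit 274 bp inside the gene, had 12.4-fold and 5.89-fold enrichment. The peak at the lower-coordinate end of Fgf15, with its summit 93 bp outside, had 17.96-fold and 9.81-fold. Both end peaks were below the median of repeat 2 and above that of repeat 1. A shared peak 8.39 kb past Fgf3, with Fgf3 as its nearest gene, went the other way (10.4-fold and 14.9-fold). Between Fgf3 and Fgf4, a gap of 18 kb, lay 4 shared peaks, and between Fgf4 and Fgf15, a gap of 31.3 kb, lay 7.

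Fgf5, the ligand gene widely used as a marker of the formative epiblast, was the opposite case. Its window of 122.8 kb on chromosome 5 held 1 peak in each repeat, and they overlapped. The peak lay inside the gene at 98255724 to 98256866, 2.07 kb from its start, with 36.7-fold and 19.7-fold enrichment (114 and 104 tags). That density of 0.814 per 100 kb was above that of 25.3% of protein-coding genes. The next shared peak was 52.3 kb away, just outside the limit, with 21.7-fold and 18.8-fold enrichment. The outermost peak counted for any member lay 49.6 kb from Fgfr3, inside Tacc3, with 19.8-fold and 22.7-fold.

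Fgf8, a ligand gene of gastrulation and later patterning, had 4 shared peaks on chromosome 19, and for 1 of them Fgf8 was the nearest gene. That one lay at 45731506 to 45732653, 4.44 kb from the lower-coordinate end, with 62.8-fold and 38.2-fold enrichment (172 and 188 tags). The strongest peak of the window was at another gene: its summit lay 10 bp from an end of Oga, which encodes O-GlcNAcase, and 40.7 kb from Fgf8 (98.6-fold and 65.9-fold). The other 2 lay inside Oga (20.8-fold and 14.1-fold) and inside the nucleophosmin family gene Npm3 (16.3-fold and 7.46-fold). Within Fgf8 itself there was a peak in repeat 1 alone, with 9.18-fold enrichment and 23 tags.

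Fgf17, a ligand of the Fgf8 subfamily, lies on chromosome 14 (70636203 to 70642268) between Dmtn and Npm2, and its window held 8 shared peaks. The strongest, at 70622887 to 70625540, lay inside Dmtn 11.2 kb away (82.9-fold and 40.4-fold), where the single peak of repeat 1 spanned more than one peak of repeat 2. The next lay inside Npm2 17.0 kb away (69.1-fold and 27.1-fold), and it led when an overlap of at least 50% of both peaks was required. At Fgf17 itself a peak at 70641950 to 70643137, with its summit 277 bp outside the higher-coordinate end, had 33.4-fold and 27.4-fold enrichment from 164 and 158 tags. It was the strongest of the shared peaks within 1 kb of an end of a member in both repeats. The shared peak inside Fgf17 was low (6.48-fold and 4.71-fold), and its value in repeat 2 was the lowest of the 66.

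Among the receptor genes, Fgfr1 and Fgfr2 carried peaks mostly inside the gene. They are also the longest members, and the gene fills more of the window than at the others. Fgfr1 takes up 57.0 of 157.0 kb and Fgfr2 104 of 204.4 kb. Fgfr1, the main receptor of early epiblast cells, had 12 shared peaks on chromosome 8, 8 of them inside the gene, or 7.65 per 100 kb. The strongest lay outside it at 25505710 to 25506540, 12.6 kb from the lower-coordinate end (56.5-fold and 48.3-fold, 135 and 204 tags). A second peak of repeat 1 beside it (17.4-fold) overlapped the same peak of repeat 2 and was counted as shared too. With an overlap of at least 50% of both peaks required, the strongest shared peak of Fgfr1 was one inside the gene, with a mean of 23.5-fold in place of 52.4-fold. Inside the gene the best by mean rank had 24.3-fold and 22.8-fold, followed by one with 28.4-fold and 14.5-fold.

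Fgfr2, known for roles in the primitive endoderm and trophoblast, spans 104 kb on chromosome 7. It had 6 shared peaks, all inside the gene. The strongest, at 130264164 to 130265718, lay 2086 bp downstream of the RefSeq start, with 26.6-fold and 39.6-fold enrichment (99 and 166 tags). It was one of 14 peaks, among the 66, with a higher fold in repeat 2. The next had 10.5-fold and 13.7-fold, and 8.70-fold and 13.0-fold. Density was 2.94 per 100 kb, close to the median gene.

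Fgfr3, which restrains bone growth, had 8 shared peaks of moderate height on chromosome 5. The summit at its start, in the peak at 33721337 to 33722746, lay 102 bp inside the gene, between both printed promoters (14.5-fold and 15.3-fold, 85 and 67 tags). The strongest peaks lay upstream, 29.3 kb (21.3-fold and 26.3-fold) and 16.3 kb away (24.2-fold and 18.4-fold), and inside Tacc3. No other member had a lower strongest peak in repeat 1.

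Fgfr4, a receptor known for bile acid control in the liver, had the strongest peak of the 10 genes and 12 shared peaks, 10.4 per 100 kb. That peak, at 55189508 to 55191331 on chromosome 13, lay between genes, 21.6 kb beyond Fgfr4 and 19.4 kb from Nsd1, a histone methyltransferase gene. It had 128-fold and 79.7-fold enrichment from 619 and 531 tags, and stood at place 249 of repeat 1 and 406 of repeat 2, the top 0.432% and 0.787%. Next came a peak 17.5 kb beyond the gene (28.6-fold and 21.2-fold) and one 561 bp past its end (31.6-fold and 13.3-fold). One shared peak lay inside the gene (13.0-fold and 7.11-fold), and the other 11 all lay beyond its end, toward and into Nsd1. A peak near the start, 0.812 kb into the gene, was found in repeat 1 alone (10.6-fold). Another pair of neighbouring peaks of repeat 1 in this window overlapped 1 peak of repeat 2.

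**Figure D3:**
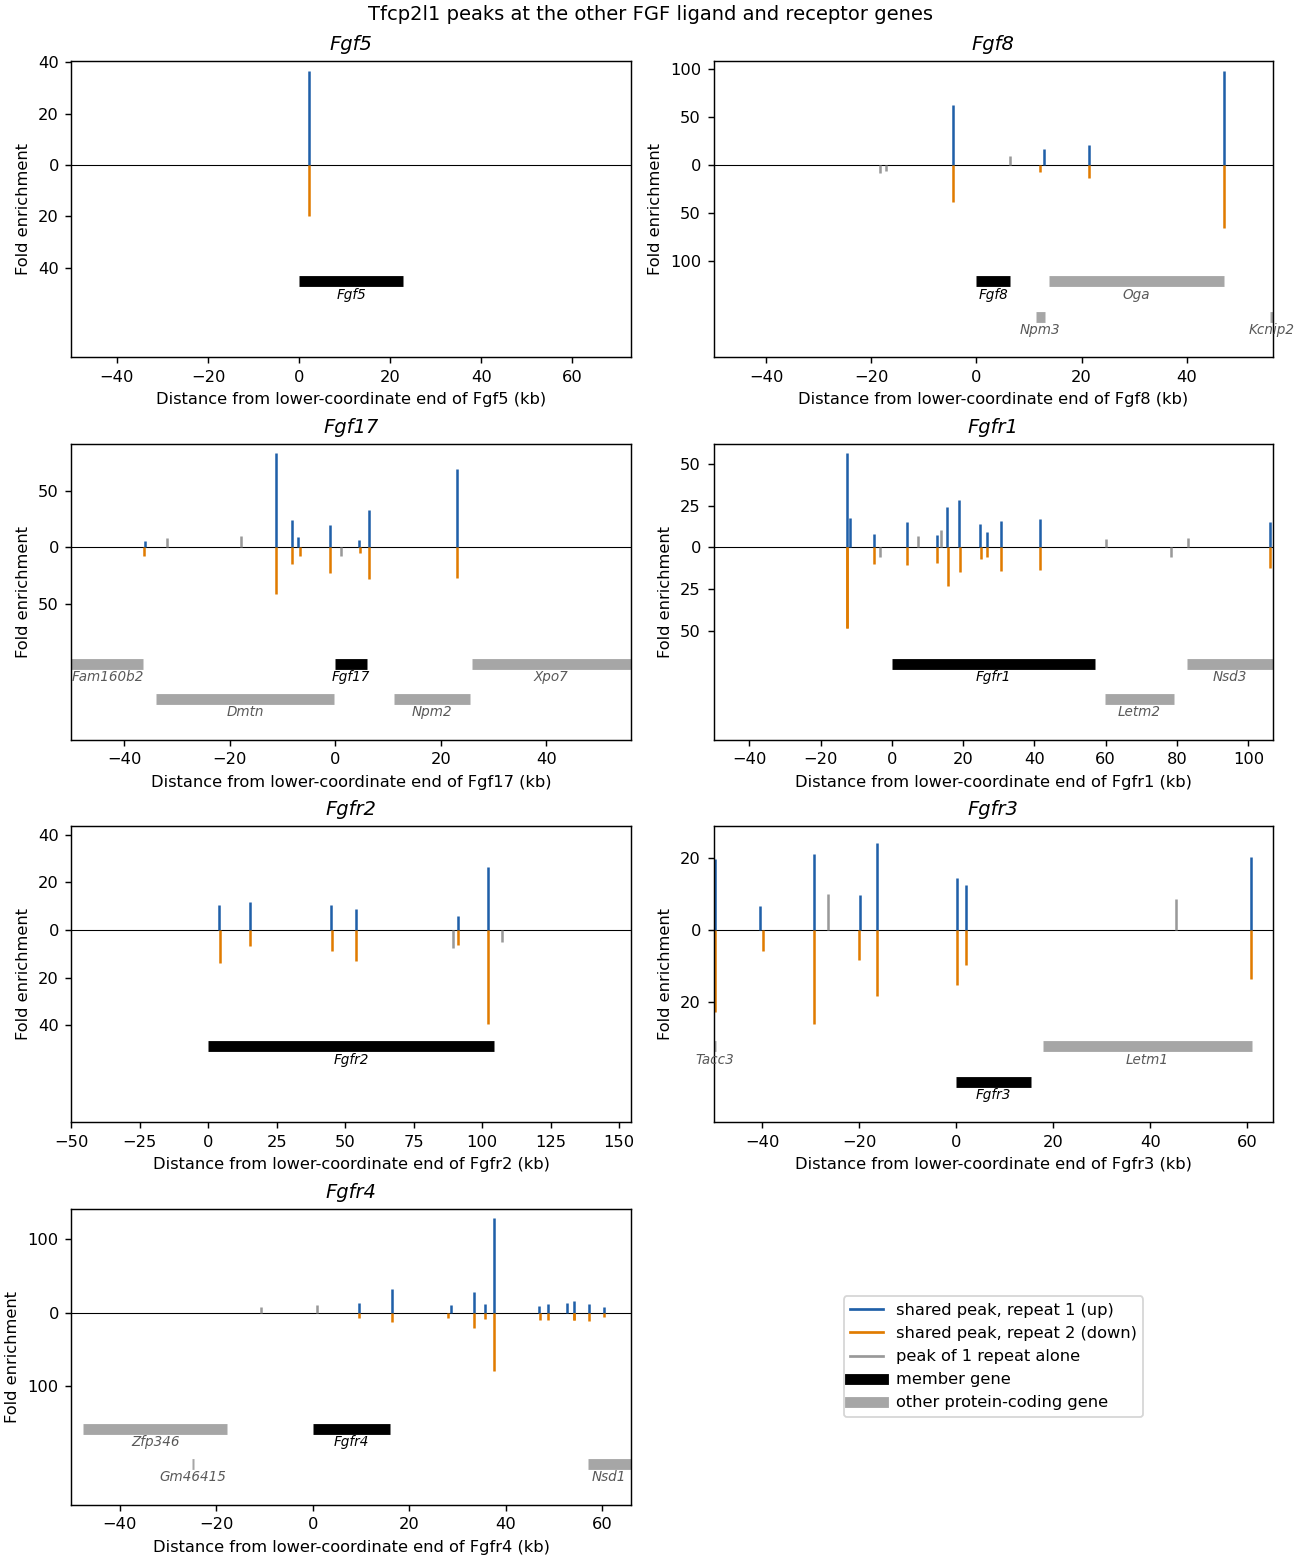
Fold enrichment of peaks in the windows of the other 7 genes, repeat 1 upward and repeat 2 downward, against distance from the lower-coordinate end of each gene in kb, with peaks of 1 repeat in grey, the member in black and other protein-coding genes in grey. Shared peaks lie inside Fgfr1 and Fgfr2, mostly beyond one end of Fgfr4 (11 of 12), and at a single position for Fgf5; the tallest line at Fgf8 is at the end of Oga.

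A shared summit lay within 1 kb of an end of 6 of the 10 genes (Fgf3, Fgf4, Fgf15, Fgf17, Fgfr3 and Fgfr4), against 28.9% of protein-coding genes. For Fgf5, Fgf8, Fgfr1 and Fgfr2 there was none. Of these 7 summits, 2 had at least 20-fold enrichment in repeat 1, those at Fgf17 and Fgfr4. In repeat 2 only the one at Fgf17 did (27.4-fold), and the one at Fgfr4 had 13.3-fold. The strongest peak in the window of each of the 10 members lay farther than 1 kb from both ends of that member.

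Over the 8 separate loci, the order of the strongest peaks was the same in both repeats for the first places only. Fgfr4 came first and the window of Fgf8, through the peak at Oga, came next in each. Fgf17, through the peak in Dmtn, and the Fgf4 cluster followed in repeat 1, and Fgfr1 and Fgf17 in repeat 2, where Fgf17 (40.4-fold), Fgfr2 (39.6-fold) and Fgf4 (39.2-fold) lay close together. The last places went to Fgfr2 and Fgfr3 in repeat 1 and to Fgfr3 and Fgf5 in repeat 2. Neighbours in the middle of this order changed places between the repeats and were not separated by these data.

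Tag counts put a counting error on such gaps. At Fgfr4 the strongest peak held 32.0 tags per 1000000 filtered ChIP tags in repeat 1 (exact 95% Poisson interval 29.5 to 34.6) and 23.5 in repeat 2 (21.6 to 25.6). At the strongest Fgf4 peak the values were 13.8 (12.2 to 15.6) and 7.98 (6.86 to 9.24). Fgfr2 went the other way, with 5.12 (4.16 to 6.23) and 7.36 (6.28 to 8.57). The intervals were apart at 5 of the 8 loci, 4 with more in repeat 1 and 1 with more in repeat 2, and overlapped at 3. They cover counting error only, and the tags of a peak also depend on its called length.

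**Figure D4:**
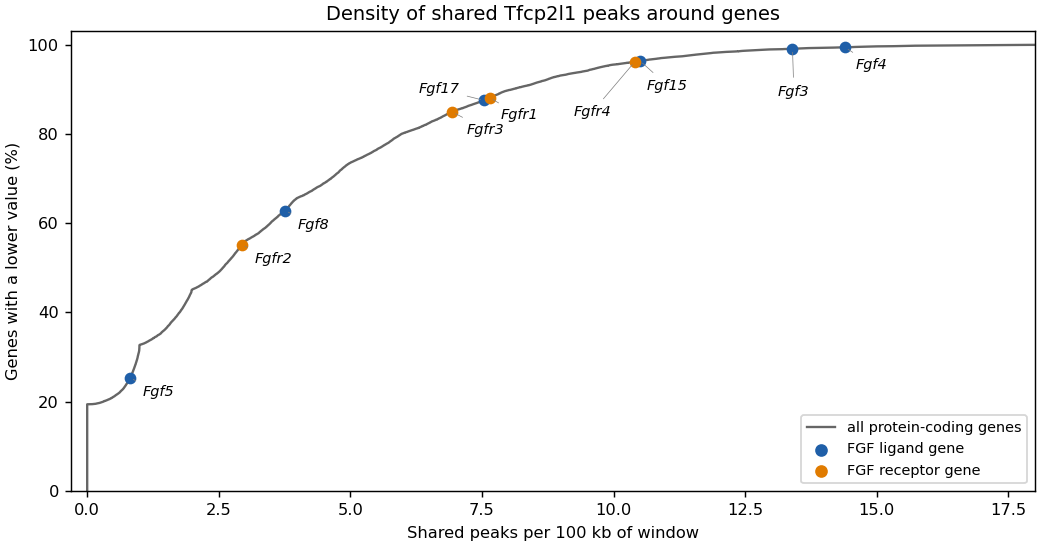
Percentage of protein-coding genes with a lower density than each value of shared peaks per 100 kb of window, with ligand genes in blue and receptor genes in orange on the line for all genes in grey. Fgf4 (14.4) and Fgf3 (13.4) lie near the top, Fgf5 (0.814) lies low, and the others fall between.

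By density the ligand genes held both extremes. After Fgf4 and Fgf3 (13.4 per 100 kb, above 99.1% of genes) came Fgf15 (10.5, above 96.4%) and Fgfr4 (10.4, above 96.1%). Fgfr1 (7.65), Fgf17 (7.54) and Fgfr3 (6.94) were above 84.9% to 88.1% of genes. Fgf8 (3.76, above 62.8%), Fgfr2 (2.94, above 55.1%) and Fgf5 followed. The first 3 share most of their peaks and are not separate observations.

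Peaks in these windows recurred about as peaks did elsewhere. Of 80 peaks of repeat 1, 66 were shared (82.5%, exact 95% binomial interval 72.4% to 90.1%), against 76.1% of the whole list. Of 72 peaks of repeat 2, 65 were shared (90.3%, 81.0% to 96.0%), against 84.8%. The 66 shared peaks had a median of 15.4-fold and 12-fold, against 15.5-fold and 11.8-fold for all shared peaks. There a peak of repeat 2 counts again for each peak of repeat 1 paired with it. With each shared peak of repeat 2 counted once, its medians were 11.8-fold in the windows and 11.5-fold in the whole list. The peaks found once were low, from 5.02-fold to 10.6-fold for the 14 of repeat 1 and from 5-fold to 8.24-fold for the 7 of repeat 2. Enrichment was higher in repeat 1 for 52 of the 66 (78.8%, against 77.5% of all shared peaks). Summits of the repeats lay a median of 34 bp apart, against 28 bp over all shared peaks.

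Other genes of the pathway were counted in 5 lists written with earlier results of these data known. Of their 52 genes, 48 had a shared peak in the gene or within 50 kb (92.3%), against the 80.6% of all protein-coding genes given above. Of 16 further FGF ligand genes 13 had one, with Fgf11, an intracellular FGF, highest (168-fold and 108-fold in its window), then Fgf23, a phosphate-regulating hormone (82.9-fold and 72.2-fold), and Fgf1 (91.3-fold and 52.6-fold). Fgf16, Fgf20 and Fgf6 had none, the last of them outside the naming rule and named after its values were seen. All 10 genes for co-receptors, related membrane proteins and the decoy receptor Fgfrl1 had one, led by the glypican gene Gpc4 (79.7-fold and 63.2-fold), the klotho family gene Klb (78.4-fold and 47.1-fold) and Flrt1 (58.9-fold and 49.1-fold).

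Enzymes of heparan sulfate synthesis had a shared peak at 7 of 8 genes. The sulfotransferase gene Hs6st1 (100.5-fold and 75.5-fold) and the polymerase gene Ext2 (101-fold and 51.8-fold) led, before Ndst1 (61.7-fold and 34.9-fold), and Hs6st2 on chromosome X had none. All 8 adaptor genes had one, led by Grb2 (139-fold and 65.3-fold), Shc1 (98.1-fold and 64.8-fold) and the exchange factor gene Sos1 (114.5-fold and 58.1-fold). All 10 genes of the kinase cascade had one, among them Hras (109-fold and 115-fold) and the ERK gene Mapk3 (107-fold and 63.2-fold). As in the members' windows, such a peak may lie nearer to another gene. Of 6 list genes on chromosome X, where 44.1% of genes had a shared peak in the window, 2 had none. The median number of shared peaks per window differed between the lists. It was 10.5 for the adaptors and 7 for both heparan sulfate synthesis and the kinase cascade. For the co-receptor list it was 4 and for the further FGF ligand genes 2, against 4 for all protein-coding genes.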

How the data were processed

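Tfcp2l1 ChIP-seq peaks of 2 repeats in mouse embryonic stem cells were analysed from the deposited peak lists. Per the file headers, the authors called peaks with MACS 1.4.1 separately for each repeat, ChIP against input, with a p-value cutoff of 1e-05, tag size of 35 bp, d of 200 bp, at most 2 duplicate tags per position and local background from 1000 and 10000 bp. CASAVA 1.8.2 is named in the submitters' processing notes, and no aligner is. Tag counts per peak were deposited as whole numbers without normalization, and fold enrichment as a ratio of ChIP over local background. Scores were deposited as −log10 of the p-value times 10, and the FDR was deposited in percent.

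The notes name mm9, but peaks on chromosome Y reach 90.8 Mb, beyond that chromosome in mm9, and genes were taken from RefSeq, GRCm38.p6. Its table gives gene ends without exons or strand. Strand and promoter sequence came from the RefSeq promoter table. The members and lists were chosen with earlier results of these data known, and no test was made. Named were all members, up to 3 shared peaks of each by mean rank of fold enrichment, peaks within 1 kb of an end, and up to 3 genes with and 2 without a peak per list. Further shared peaks near Fgf3, Fgf4 and Fgf8 and inside Fgf17, Fgfr1 and Fgfr4, and peaks of 1 repeat, were named after their values were seen. One gene that this rule names is not reported here. Matching and counting were tested on simulated data. Python 3.11.15, pandas 2.3.3 and scipy 1.17.1 were used.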

Additional observations from a re-analysis of the deposited data

How the results depend on the processing

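All 10 members kept a shared peak under each definition of sharing, fold of at least 10, score of at least 100, windows of 10 and 100 kb, and nearest gene (tried after seeing the data), and all 10 had a peak in each repeat taken alone. The number was 7 for an FDR of 0 and for summits inside the gene. Of all protein-coding genes, 85.5% had a peak of repeat 1 in the window and 82.9% a peak of repeat 2. The shares of all genes within 10 kb, inside the gene and by nearest gene are given above. For the other settings no share of all genes is given, so those counts cannot be read as particular to the members. The 66 shared peaks became 38 with at least 10-fold in both repeats, 13 with an FDR of 0, 41 within 10 kb and 20 inside the genes, and each repeat alone had 72 to 80 peaks of any kind. The shared percentage of repeat 1 (82.5% of 80 peaks) was 71.2% of the same 80 for summits within 100 bp. It was 66.7% of 57 peaks with at least 10-fold and 31.0% of 42 with an FDR of 0. The whole list is not given under these settings, so the lower values are not shown to be particular to these windows. With repeat 2 as denominator and the main rule, the shared percentage was 90.3%. The FDR limit does not follow enrichment: the strongest Fgf4 peak had an FDR of 0.03% in repeat 2. The strongest peak had the same summit in repeat 1 for 8 members with an overlap of at least 50% (exceptions Fgfr1 and Fgf17), for 3 with an FDR of 0, for 3 within 10 kb and for 6 by tags. With an FDR of 0 the one at Fgf17 was paired with another peak of repeat 2 (mean 47.4-fold in place of 61.7-fold), and that of Fgfr1 had a mean of 21.5-fold. Within 10 kb the mean fold of the strongest peak moved for 7 members, from 12.7-fold at Fgf3 to 50.5-fold at Fgf8 in place of the window's strongest. Of the 6 members with a promoter entry, 0 had the motif pair in the narrow form and 3 in the wider one. No paired analysis was possible because the files hold ChIP peaks already called against input and no values of the inputs themselves. Peaks below the caller's cutoff were not analysed here, so a peak of 1 repeat is not shown to be absent in the other.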

Other observations

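For 21 of the 66 shared peaks the nearest protein-coding gene was not a member. Nsd1, next to Fgfr4, was the nearest gene of 7, the strongest at 128-fold and 79.7-fold. Dmtn, a gene of the red cell membrane skeleton beside Fgf17, was the nearest gene of 4 (up to 82.9-fold and 40.4-fold). Tacc3, a mitotic spindle gene beside Fgfr3, was the nearest of 3 (up to 21.3-fold and 26.3-fold), and Oga of 2. In the windows of Fgf4 and Fgf3, every shared peak had a ligand gene of the cluster as its nearest gene.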
